A study of Homo sapiens with 12 samples.

Results

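The replication-dependent histone genes are the clustered genes that encode the bulk of the H1, H2A, H2B, H3 and H4 proteins, and they were described here during necroptosis of HT-29, an established line from a human colorectal adenocarcinoma. They were chosen by name, as every symbol of the gene table of the second experiment that starts with HIST1, HIST2, HIST3 or HIST4, which gave 67 of 19128 symbols. Of the 67, 6 encode H1, 16 encode H2A, 18 encode H2B, 13 encode H3 and 14 encode H4. A mean of at least 1 FPKM (fragments normalised for transcript length and library size) in 1 or more of 4 groups was reached by 53 of them, in all 4 groups by 39 and in some groups by 14. A further 8 stayed under that minimum, with at most 1.72 FPKM in any library, and 6 were listed at 0 in all 8 libraries.

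Polyadenylated RNA was sequenced in 12 libraries of 2 experiments. TBZ combines 20 ng/mL of TNFa, which engages the TNF receptor, with 2 µM of BV6, an antagonist of inhibitor of apoptosis proteins, and 30 µM of the caspase inhibitor zVAD-fmk; DMSO served as the control. The second experiment had 2 libraries in each of 4 groups, HT-29 cells with MLKL knocked down by lentivirus (shMLKL) after 5 h of TBZ or under DMSO, and the HT-29/shGFP control line, whose labels list no gene knockdown, after 5 h of TBZ or under DMSO. The first experiment had 1 library for each of shMLKL cells after 12 h of TBZ, shMLKL cells under DMSO, parental HT-29 cells after 4 h of TBZ and parental cells under DMSO. MLKL is the pseudokinase that permeabilises the plasma membrane in necroptosis. No label says whether a line is 1 clone or a pool. Nor does any state that both libraries of a group were grown apart, and p-values here reflect the spread among these libraries alone, possibly a technical one.

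Replication-dependent histone genes are switched on in S phase, when newly made DNA must be packed into nucleosomes, and their messages are destroyed when replication ends. Their usual messages have no poly(A) tail: they end just after a conserved stem-loop that is bound by SLBP and cleaved with the help of the U7 ribonucleoprotein. Some of these genes can also be read past the stem-loop to a poly(A) site, sometimes with splicing, which gives polyadenylated messages that do not need S phase. RNA selected on its poly(A) tail therefore samples only the polyadenylated fraction of each gene, and no value below is a total histone message level.

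The stem-loop is shown first, because it is the point at which the unpolyadenylated message would end. In GENCODE release 29, 29 of the 67 genes (43.3%) had the histone stem-loop consensus in an annotated transcript, against 63 of 57066 other genes (0.11%). For 21 of the 29 some annotated transcript ran at least 100 bases past the stem-loop, and for 8 every transcript with a stem-loop stopped closer to it. The other 38 genes had no stem-loop within the annotated transcripts, which for most of them are little more than the coding region, so their 3′ ends are not described by this count. The transcripts below belong to genes that the results turn on. Capitals mark the 16 bases of the stem and loop in the strand of the message, with 5 bases on either side in lower case.
HIST2H2BE: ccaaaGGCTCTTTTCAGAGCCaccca
HIST2H2AA3: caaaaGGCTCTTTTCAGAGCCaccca
HIST1H2AC: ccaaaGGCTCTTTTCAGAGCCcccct
HIST1H2BC: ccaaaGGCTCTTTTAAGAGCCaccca
HIST1H2BD: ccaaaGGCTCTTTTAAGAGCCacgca
HIST1H4E: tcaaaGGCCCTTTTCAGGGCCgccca
The commonest form, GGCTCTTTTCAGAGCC, stood in 15 of the 29 genes, mostly of H2A and H2B. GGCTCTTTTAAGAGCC, with another base in the loop, stood in 5, among them HIST1H2BC and HIST1H2BD. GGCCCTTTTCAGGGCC, with an altered stem, stood in 5 genes, each of which encodes H4. The HIST2H2BE transcript ran 1729 bases past its stem-loop, the HIST1H2AC transcript 1128 and the HIST1H4E transcript 1022. The HIST2H2AA3 transcript ran 35 bases past it and the shorter HIST1H2BD transcript 39, while the other annotated HIST1H2BD transcript lacks the stem-loop.

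The start regions of these genes differ by class. In RefSeq windows of 300 bases (250 before to 50 after the start, build GRCh38.p14), matched for 62 of the 67 genes, 3 motifs were counted on both strands. They were the octamer ATTTGCAT, which binds OCT1 in H2B promoters, CCAAT, which binds NF-Y, and the TATA box core TATAAA. This last motif can overlap its own reverse complement, and a promoter with overlapping copies was counted once. The octamer stood in 14 of 18 H2B promoters (77.8%), 11 of 15 H2A promoters (73.3%), 1 of 11 H3 promoters (9.09%) and in none of the 6 H1 or 12 H4 promoters, against 1.80% of 27305 promoters of all genes. These windows are not independent: 11 H2A, 11 H2B and 1 H3 window overlap that of another histone gene, and the H3 window with the octamer is that of HIST1H3D, which shares its start with HIST1H2AD. CCAAT stood in every matched H1, H2A, H2B and H3 promoter and in 3 of 12 H4 promoters (25%), against 35.7% of all promoters. TATAAA stood in 41 of 62 (66.1%), against 12.0% of all promoters. In overlapping windows the same match counts for both genes. Shown are the 250 bases before the start of HIST2H2BE, which rose with TBZ in both lines, of HIST1H2BC, which rose in shGFP cells, and of HIST1H4E, the most abundant member. Capitals mark the motifs on either strand.
HIST2H2BE, chr1:149886683-149886932, reverse strand: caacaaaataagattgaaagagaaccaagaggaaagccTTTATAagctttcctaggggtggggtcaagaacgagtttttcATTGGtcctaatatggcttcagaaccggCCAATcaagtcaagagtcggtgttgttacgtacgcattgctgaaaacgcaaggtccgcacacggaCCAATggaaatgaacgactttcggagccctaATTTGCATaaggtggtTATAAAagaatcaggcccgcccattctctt
HIST1H2BC, chr6:26123927-26124176, reverse strand: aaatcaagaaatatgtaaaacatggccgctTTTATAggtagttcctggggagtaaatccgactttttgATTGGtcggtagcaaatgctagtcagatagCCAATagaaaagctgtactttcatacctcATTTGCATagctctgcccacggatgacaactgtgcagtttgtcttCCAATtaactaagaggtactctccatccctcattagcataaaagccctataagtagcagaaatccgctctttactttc
HIST1H4E, chr6:26204360-26204609, forward strand: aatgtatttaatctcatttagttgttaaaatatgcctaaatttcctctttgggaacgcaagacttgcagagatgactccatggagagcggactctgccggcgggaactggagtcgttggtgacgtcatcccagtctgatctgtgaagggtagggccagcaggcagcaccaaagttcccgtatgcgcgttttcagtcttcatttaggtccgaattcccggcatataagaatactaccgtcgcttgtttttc
The H2B windows shown hold the octamer, CCAAT in both orientations and TATAAA or its reverse complement, while the HIST1H4E window holds none of the 3. The only TATAAA match of the HIST1H2BC window lies far from its start. It is shared with the overlapping window of HIST1H2AC, where it stands close before the start of that gene. A match is a description of these letters and not evidence of binding.

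MLKL had 0.651 and 0.395 FPKM in TBZ-treated and 0.606 and 0.545 FPKM in DMSO-treated shMLKL cells. In shGFP cells MLKL had 1.98 and 2.03 FPKM after TBZ and 3.95 and 3.88 FPKM under DMSO. MLKL is the target of the knockdown, and the groups of the lines did not overlap. In the first experiment its RefSeq transcripts summed to 2.15 FPKM in shMLKL cells after 12 h of TBZ, 0.854 in shMLKL cells under DMSO, 6.16 in parental cells after 4 h of TBZ and 6.31 in parental cells under DMSO. No file holds read counts, so depth is known only in relative terms, at 82.9 to 100.0% of the deepest library in the second experiment. Of 10 colon epithelium markers, EPCAM stood at 312 to 393 FPKM and CDH1 at 80.5 to 93.0 FPKM. Others differed between lines. Under DMSO KRT20 had 229 and 234 FPKM in shMLKL and 86.1 and 89.3 FPKM in shGFP cells. LGALS4 had 161 and 164 FPKM in shMLKL and 109 and 108 FPKM in shGFP cells, and VIL1 had 8.00 and 7.31 FPKM in shMLKL and 20.6 and 20.0 FPKM in shGFP cells. CEACAM5 stayed between 0.795 and 2.88 FPKM, and the part of these differences in the results below was not tested. Of the same list, KRT8 and KRT18 were listed at 0 in 7 of 8 libraries, so a 0 in this table can be a failed estimate. CDX1 and CDX2, which define intestinal identity, stayed at or below 0.208 FPKM. Of the leukocyte markers, PTPRC stayed at or below 0.0609 FPKM, CD3E was listed at 0 in all 8 libraries, CD14 and ITGAM stayed at or below 1.38 FPKM, LYZ stood at 521 to 658 FPKM, and 6 fibroblast and endothelium markers stayed at or below 0.190 FPKM.

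In the second experiment polyadenylated histone RNA was highest in shMLKL cells under DMSO, and its sum was lower with TBZ in both lines. The FPKM of the 67 genes summed to 256 and 292 in TBZ-treated and 356 and 303 in DMSO-treated shMLKL cells, against 200 and 228 in TBZ-treated and 249 and 244 in DMSO-treated shGFP cells. The treated and untreated libraries of each line did not overlap, nor did the lines within a treatment. HIST1H4E alone made up a large part of it: without it the sums were 210 and 235 in TBZ-treated and 285 and 237 in DMSO-treated shMLKL cells, against 178 and 191 in TBZ-treated and 205 and 206 in DMSO-treated shGFP cells. These sums are given as a description, without a test. The single libraries of the first experiment, described below, went the other way, with higher sums after TBZ than under DMSO. Under DMSO their sum was 363.3 in shMLKL and 341.0 in parental cells, and 301.7 and 315.4 without HIST2H4A. In bulk RNA, fewer cells that express a gene and less RNA per cell cannot be told apart.

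**Figure D1:**
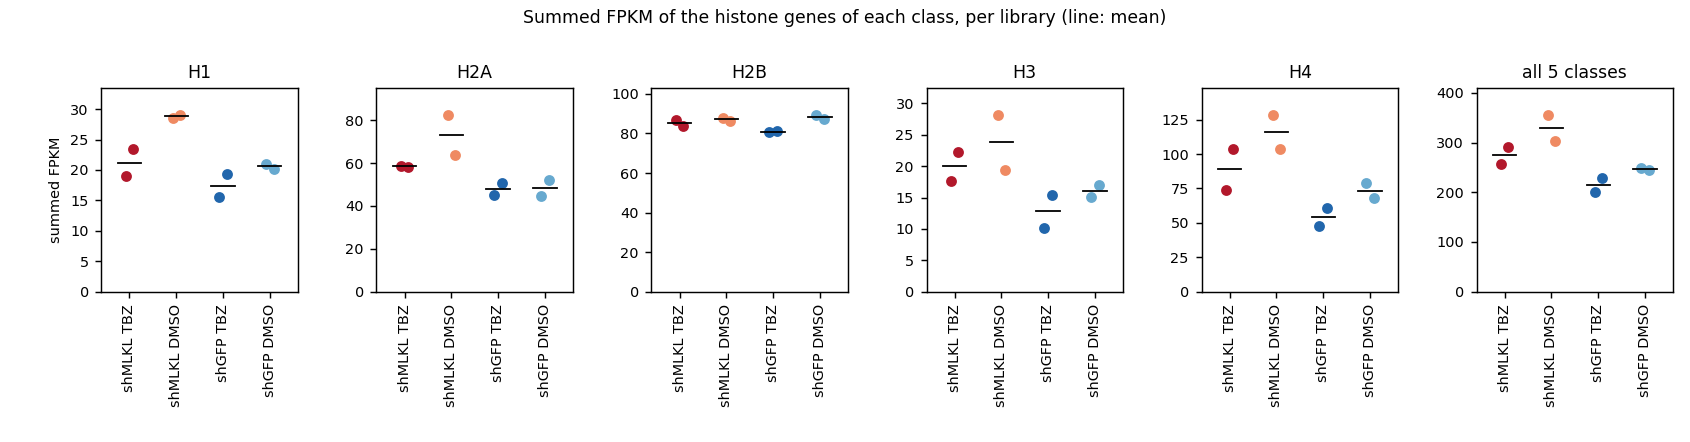
Summed FPKM of the histone genes of each class in each library of the second experiment (points) with the mean of 2 libraries (line), shMLKL cells left of shGFP cells and TBZ left of DMSO. The H4 sum averaged 89.1 in TBZ-treated and 116 in DMSO-treated shMLKL cells, against 54.5 in TBZ-treated and 73.2 in DMSO-treated shGFP cells, while the H2B sum stayed between 80.9 and 89.4 in all 8 libraries.

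The classes differed in how far the lines stood apart. H4 genes summed to 89.1 ± 21.1 FPKM in TBZ-treated and 116 ± 17.3 in DMSO-treated shMLKL cells, against 54.5 ± 9.28 in TBZ-treated and 73.2 ± 7.74 in DMSO-treated shGFP cells (SD, n = 2 each). The H2A sum was 58.5 ± 0.188 and 73.2 ± 13.2 FPKM in TBZ- and DMSO-treated shMLKL cells, against 48.0 ± 3.94 and 48.4 ± 5.44 FPKM in TBZ- and DMSO-treated shGFP cells. The H3 sum was 20.0 ± 3.29 and 23.8 ± 6.21 FPKM in TBZ- and DMSO-treated shMLKL cells, against 12.8 ± 3.75 and 16 ± 1.36 FPKM in TBZ- and DMSO-treated shGFP cells. In these 3 classes the shMLKL libraries lay above the shGFP libraries of the same treatment. For H1, the linker histones, the sum was 21.2 ± 3.10 and 28.8 ± 0.337 FPKM in TBZ- and DMSO-treated shMLKL cells, against 17.4 ± 2.75 and 20.6 ± 0.614 FPKM in TBZ- and DMSO-treated shGFP cells. The lines did not overlap under DMSO, and under TBZ the lower shMLKL library (19.0) lay within the shGFP pair (15.5 and 19.4). H2B genes summed to 85.2 ± 2.16 and 87.2 ± 1.01 FPKM in TBZ- and DMSO-treated shMLKL cells, against 81.0 ± 0.169 and 88.2 ± 1.62 FPKM in TBZ- and DMSO-treated shGFP cells. Its lines overlapped under DMSO, and under TBZ the shMLKL libraries (83.7 and 86.7) lay above the shGFP libraries (80.9 and 81.1). Leaving out HIST1H2BK, a gene singled out after its values were seen, the H2B sums were 80.3 and 76.1 in TBZ-treated and 79.7 and 78.0 in DMSO-treated shMLKL cells, against 57.5 and 58.2 in TBZ-treated and 69.1 and 61.1 in DMSO-treated shGFP cells.

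**Figure D2:**
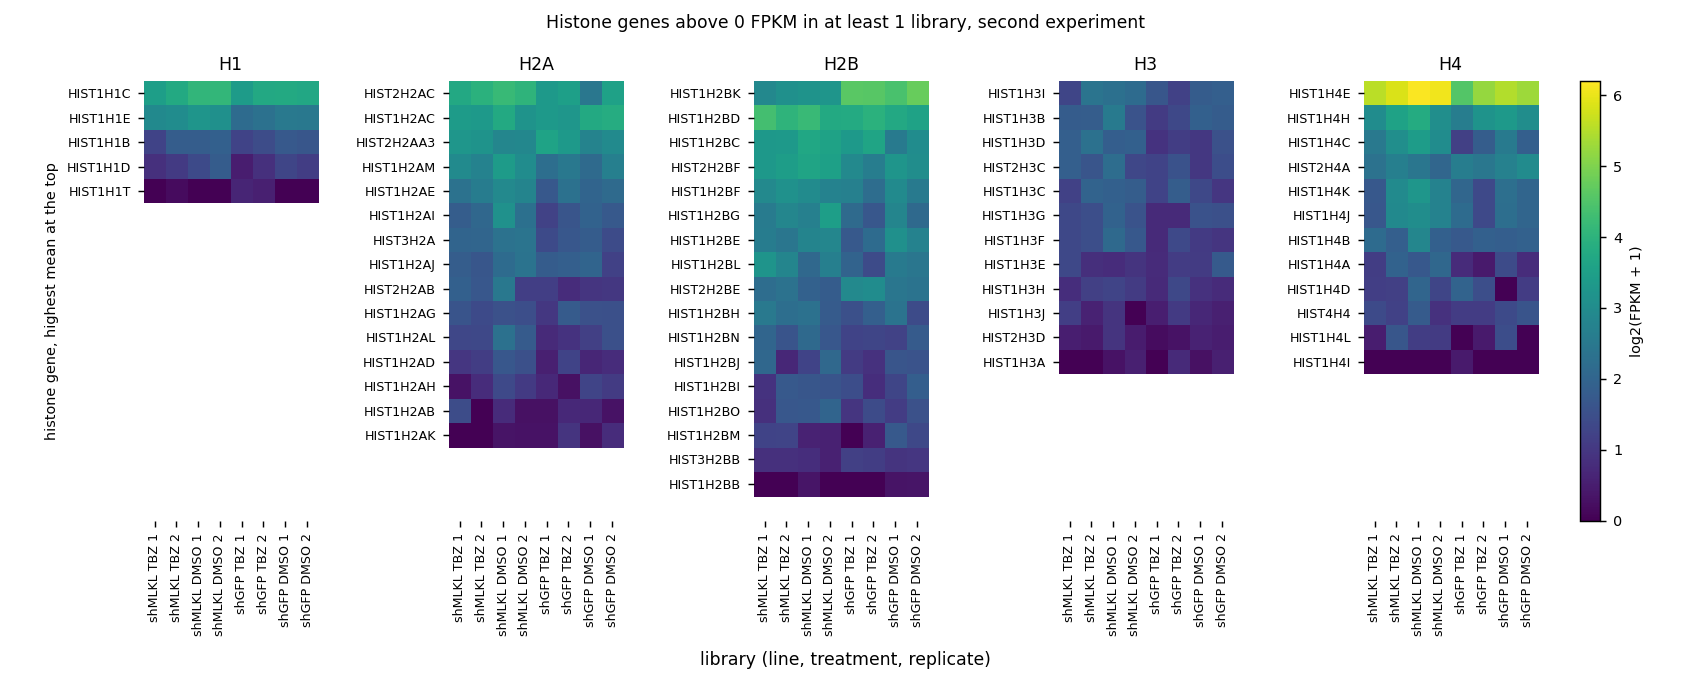
Level of each histone gene above 0 in at least 1 library of the second experiment as log2(FPKM + 1), by class, with the 8 libraries as columns and the highest mean at the top. HIST1H4E has the highest values, 22.2 to 70.2 FPKM, and HIST1H2BK, the first H2B gene, has lower values in the shMLKL columns.

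Differences between groups were tested with limma on log2(FPKM + 1) over 10364 genes, with Benjamini-Hochberg adjustment, and called at an adjusted p under 0.05. Differences are on that scale, which understates the fold change of low genes. Each call was repeated in 14 other fits with another setting or 1 library left out, and the number of those fits in which it held is given beside it, followed by the highest adjusted p among the fits that ended it and by those fits, where equal medians and quantiles stand for scaling by library medians and quantile normalization. These 14 are not equal checks. The sum of distinct lines left the histone class sums unchanged and could hardly end a call. Leaving out a library that is not part of a comparison leaves its difference unchanged. Only the spread and the set of genes tested then change. Under DMSO 17 of the 53 histone genes tested were higher in shMLKL than in shGFP cells and 5 were lower, where 18.3% of all genes tested were higher and 44.8% lower. Their median difference was 0.38 against −0.16 for all genes tested, and with the library medians set equal, which moves the median of all genes to 0.01, 24 were higher and 3 lower, with a median of 0.55. In that fit 30.1% of all genes were higher and 26.6% lower. Under TBZ 13 were higher and 3 lower, where 20.7% of all genes were higher and 31.0% lower, with a median of 0.39 against −0.06 for all genes. Of the 39 genes at the minimum in all 4 groups, 14 were higher and 3 lower under DMSO, and 9 were higher and 2 lower under TBZ. HIST1H2AD reached the minimum in the shMLKL groups only and HIST3H2BB in TBZ-treated shGFP cells only. Each of them entered the test through the line where it is high. HIST1H4A, higher in shMLKL cells under TBZ, did not reach the minimum in TBZ-treated shGFP cells. Both line comparisons contain the same libraries as the treatment comparisons below.

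With TBZ, 3 histone genes rose and 4 fell in shMLKL cells, where 20.0% of all genes tested rose and 17.6% fell. In shGFP cells 4 histone genes rose and 10 fell, where 19.1% of all genes rose and 37.3% fell, and with the library medians set equal 4 rose and 5 fell. With the medians set equal, 22.6% of all genes rose and 28.2% fell in shGFP cells. Of the 39 genes at the minimum in all 4 groups, 2 rose and 1 fell in shMLKL cells, and 3 rose and 5 fell in shGFP cells. The fallers HIST1H1D and HIST1H2AH reached the minimum in the DMSO groups only, and entered the test through the groups where they are high. HIST1H2AL and HIST1H3G did not reach it in TBZ-treated shGFP cells, nor HIST1H4D in DMSO-treated shGFP cells, nor HIST1H2BM in either group where it is lower. The median difference of the histone genes was −0.29 in shMLKL cells, against 0.00 for all genes tested, and −0.28 in shGFP cells, against −0.12 for all genes. Most of the 53 lay below 0 in both lines (42 in shMLKL and 39 in shGFP cells), with few calls. Of all 10364 genes tested, 5262 lay below 0 in shMLKL cells and 6807 in shGFP cells, so most genes also lay below 0 in shGFP cells. The TBZ effects of the lines differed for 3 genes of 53, higher in shMLKL for 2 and lower for 1, where 14.6% of all genes were higher and 7.66% lower.

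**Figure D3:**
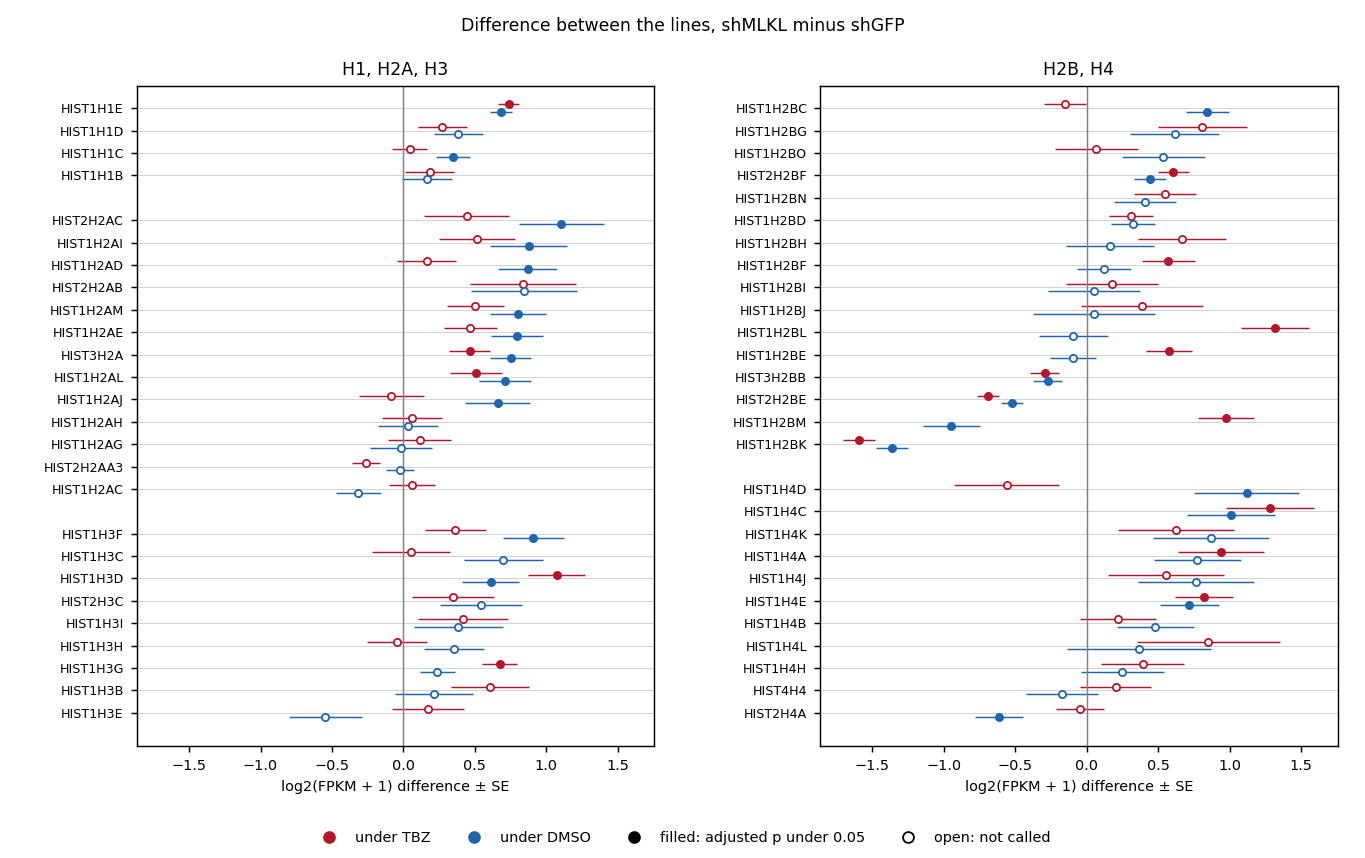
Difference between shMLKL and shGFP cells for each tested histone gene by class, under TBZ (red, upper point) and under DMSO (blue, lower point), as log2(FPKM + 1) ± SE; filled points were called. Most points lie to the right of 0, and HIST1H2BK lies farthest to the left, at −1.59 under TBZ and −1.36 under DMSO.

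H1 histones bind the linker DNA between nucleosomes, and 4 of 6 H1 genes were tested. HIST1H1E had 6.64 and 7.10 FPKM in TBZ-treated and 8.46 and 7.59 FPKM in DMSO-treated shMLKL cells. In shGFP cells HIST1H1E had 3.51 and 3.94 FPKM after TBZ and 4.64 and 4.61 FPKM under DMSO. HIST1H1E encodes the subtype H1.4, and its shMLKL libraries stood well above its shGFP libraries. It was higher in shMLKL cells by 0.74 ± 0.075 (SE, limma adjusted p = 0.000184, 14 of 14 other fits) under TBZ and by 0.68 ± 0.075 (SE, limma adjusted p = 0.000182, 14 of 14 other fits) under DMSO, and it fell with TBZ in shGFP cells, −0.25 ± 0.075 (SE, limma adjusted p = 0.0228, 9 of 14 other fits, up to 0.18 without shGFP TBZ 1 or shGFP DMSO 1 or 2, with equal medians or with quantiles). In shMLKL cells its TBZ difference was −0.20 ± 0.075 (SE, limma adjusted p = 0.0751). HIST1H1C had 10.2 and 12.6 FPKM in TBZ-treated and 15.9 and 16.3 FPKM in DMSO-treated shMLKL cells. In shGFP cells HIST1H1C had 9.62 and 12.5 FPKM after TBZ and 12.7 and 12.2 FPKM under DMSO. HIST1H1C encodes H1.2 and was the most abundant H1 gene. It fell with TBZ in shMLKL cells, −0.47 ± 0.12 (SE, limma adjusted p = 0.0189, 11 of 14 other fits, up to 0.101 without shMLKL TBZ 1 or shMLKL DMSO 1 or 2). It was higher in shMLKL than in shGFP cells under DMSO, 0.35 ± 0.12 (SE, limma adjusted p = 0.0375, 9 of 14 other fits, up to 0.141 without shMLKL DMSO 1 or 2 or shGFP DMSO 1 or 2 or with no filter). HIST1H1D had 0.812 and 1.06 FPKM in TBZ-treated and 1.63 and 2.46 FPKM in DMSO-treated shMLKL cells. In shGFP cells HIST1H1D had 0.407 and 0.820 FPKM after TBZ and 1.47 and 1.17 FPKM under DMSO. HIST1H1D, which encodes H1.3, fell with TBZ in shMLKL cells, −0.64 ± 0.17 (SE, limma adjusted p = 0.0224, 10 of 14 other fits, up to 0.121 without shMLKL TBZ 1 or 2 or shMLKL DMSO 2 or with no filter), and in shGFP cells, −0.53 ± 0.17 (SE, limma adjusted p = 0.0321, 8 of 14 other fits, up to 0.179 without shGFP TBZ 1 or shGFP DMSO 1 or 2, with equal medians, with no filter or with quantiles). HIST1H1B, which encodes H1.5, had 1.36 to 2.71 FPKM and passed no test.

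H2A and H2B pair into the dimers that flank the H3 and H4 core. Of 13 H2A genes tested, 8 (61.5%) were higher in shMLKL than in shGFP cells under DMSO and 2 (15.4%) under TBZ, and none was lower. Of all genes tested, 18.3% were higher and 44.8% lower under DMSO, and 20.7% higher and 31.0% lower under TBZ. The share of H2A genes higher under TBZ was thus below that of all genes. HIST2H2AC had 12.4 and 14.6 FPKM in TBZ-treated and 17 and 15.3 FPKM in DMSO-treated shMLKL cells. In shGFP cells HIST2H2AC had 9.0 and 10.3 FPKM after TBZ and 4.45 and 10.6 FPKM under DMSO. Except for 1 shGFP DMSO library at 4.45, its values were all at or above 9.0, and it was higher in shMLKL cells under DMSO by 1.10 ± 0.30 (SE, limma adjusted p = 0.0133, 13 of 14 other fits, 0.0665 without shMLKL DMSO 1). HIST1H2AM had 6.85 and 5.77 FPKM in TBZ-treated and 9.51 and 7.11 FPKM in DMSO-treated shMLKL cells. In shGFP cells HIST1H2AM had 3.73 and 4.59 FPKM after TBZ and 3.39 and 5.41 FPKM under DMSO. HIST1H2AE had 4.08 and 5.09 FPKM in TBZ-treated and 6.59 and 5.90 FPKM in DMSO-treated shMLKL cells. In shGFP cells HIST1H2AE had 2.28 and 3.93 FPKM after TBZ and 2.97 and 3.39 FPKM under DMSO. For both genes the lines did not overlap under DMSO. The differences under DMSO were 0.80 ± 0.20 (SE, limma adjusted p = 0.00897, 12 of 14 other fits, up to 0.0624 without shMLKL DMSO 1 or shGFP DMSO 1) for HIST1H2AM and 0.79 ± 0.18 (SE, limma adjusted p = 0.00666, 14 of 14 other fits) for HIST1H2AE. HIST3H2A had 2.98 and 3.03 FPKM in TBZ-treated and 4.07 and 4.25 FPKM in DMSO-treated shMLKL cells. In shGFP cells HIST3H2A had 1.61 and 2.22 FPKM after TBZ and 2.51 and 1.68 FPKM under DMSO. HIST3H2A lies outside the large cluster on chromosome 6, on chromosome 1. It was higher in shMLKL cells by 0.75 ± 0.14 (SE, limma adjusted p = 0.00272, 14 of 14 other fits) under DMSO and by 0.47 ± 0.14 (SE, limma adjusted p = 0.0288, 10 of 14 other fits, up to 0.163 without shMLKL TBZ 1 or 2 or shGFP TBZ 1 or with no filter) under TBZ.

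A further 5 H2A genes were called, with group means under 4 FPKM except for HIST1H2AI in shMLKL cells under DMSO. HIST1H2AI had 2.53 and 3.21 FPKM in TBZ-treated and 7.80 and 3.91 FPKM in DMSO-treated shMLKL cells. In shGFP cells HIST1H2AI had 1.33 and 2.12 FPKM after TBZ and 2.88 and 2.31 FPKM under DMSO. HIST1H2AJ had 2.57 and 2.18 FPKM in TBZ-treated and 3.47 and 4.16 FPKM in DMSO-treated shMLKL cells. In shGFP cells HIST1H2AJ had 2.50 and 2.65 FPKM after TBZ and 3.01 and 1.31 FPKM under DMSO. In HIST1H2AI, 1 shMLKL DMSO library stood far above the other. In 3 of 4 libraries of the first experiment its assembled transcript was shared with the neighbouring HIST1H3H. Both were higher in shMLKL cells under DMSO, by 0.88 ± 0.27 (SE, limma adjusted p = 0.022, 10 of 14 other fits, up to 0.115 without shMLKL DMSO 1 or shGFP DMSO 1 or 2 or with no filter) for HIST1H2AI and 0.66 ± 0.23 (SE, limma adjusted p = 0.0353, 6 of 14 other fits, up to 0.153 without shMLKL TBZ 1 or 2, shMLKL DMSO 1 or 2, shGFP TBZ 1 or 2 or shGFP DMSO 2 or with no filter) for HIST1H2AJ. HIST1H2AD had 0.967 and 1.19 FPKM in TBZ-treated and 2.21 and 1.86 FPKM in DMSO-treated shMLKL cells. In shGFP cells HIST1H2AD had 0.453 and 1.36 FPKM after TBZ and 0.592 and 0.728 FPKM under DMSO. Its mean reached the minimum in the shMLKL groups only, so it entered the test through the line where it is high. HIST1H2AD overlaps HIST1H3D, so their fragments may be shared, and its difference under DMSO was 0.87 ± 0.21 (SE, limma adjusted p = 0.00741, 14 of 14 other fits). HIST1H2AL had 1.51 and 1.54 FPKM in TBZ-treated and 4.00 and 2.45 FPKM in DMSO-treated shMLKL cells. In shGFP cells HIST1H2AL had 0.662 and 0.889 FPKM after TBZ and 1.27 and 1.84 FPKM under DMSO. These values correspond to 6 and 6 fragments in TBZ-treated and 17 and 11 in DMSO-treated shMLKL cells, against 3 and 4 in TBZ-treated and 6 and 8 in DMSO-treated shGFP cells, at 0.231 FPKM each. HIST1H2AL was higher in shMLKL cells under DMSO, 0.71 ± 0.18 (SE, limma adjusted p = 0.0109, 12 of 14 other fits, up to 0.0773 without shMLKL DMSO 1 or shGFP DMSO 1), and under TBZ, 0.51 ± 0.18 (SE, limma adjusted p = 0.049, 6 of 14 other fits, up to 0.199 without shMLKL TBZ 1 or 2, shGFP TBZ 1 or 2 or shGFP DMSO 1 or 2, with no filter or with the replicate block). It fell with TBZ in shMLKL cells, −0.72 ± 0.18 (SE, limma adjusted p = 0.0179, 11 of 14 other fits, up to 0.0806 without shMLKL TBZ 1 or 2 or shMLKL DMSO 1), and in shGFP cells, −0.52 ± 0.18 (SE, limma adjusted p = 0.0424, 5 of 14 other fits, up to 0.218 without shMLKL TBZ 1 or 2, shGFP TBZ 1 or 2 or shGFP DMSO 2, with equal medians, with no filter, with quantiles or with the replicate block). HIST1H2AH had 0.241 and 0.737 FPKM in TBZ-treated and 1.58 and 1.07 FPKM in DMSO-treated shMLKL cells. In shGFP cells HIST1H2AH had 0.636 and 0.213 FPKM after TBZ and 1.43 and 1.11 FPKM under DMSO. HIST1H2AH, at 1 to 7 fragments a library and at the minimum in the DMSO groups only, fell with TBZ in shMLKL cells, −0.65 ± 0.21 (SE, limma adjusted p = 0.0431, 5 of 14 other fits, up to 0.206 without shMLKL TBZ 1, shMLKL DMSO 1 or 2 or shGFP DMSO 1 or 2, with no filter, with pseudocount 0.1, with quantiles or with the replicate block), and in shGFP cells, −0.68 ± 0.21 (SE, limma adjusted p = 0.0258, 9 of 14 other fits, up to 0.141 without shGFP TBZ 2 or shGFP DMSO 1 or 2, with no filter or with quantiles).

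HIST2H2AA3, by contrast, rose with TBZ in both lines. HIST2H2AA3 had 8.50 and 8.03 FPKM in TBZ-treated and 6.16 and 6.27 FPKM in DMSO-treated shMLKL cells. In shGFP cells HIST2H2AA3 had 11.1 and 9.15 FPKM after TBZ and 5.86 and 6.82 FPKM under DMSO. Every treated library lay above every untreated one, in both lines. The difference was 0.36 ± 0.097 (SE, limma adjusted p = 0.0223, 9 of 14 other fits, up to 0.101 without shMLKL TBZ 1 or 2 or shMLKL DMSO 1 or 2 or with no filter) in shMLKL cells and 0.60 ± 0.097 (SE, limma adjusted p = 0.00149, 14 of 14 other fits) in shGFP cells. HIST2H2AA3 has an identical copy beside it on chromosome 1, and its values stood on 2 identical lines of the table, so the copies cannot be told apart. HIST1H2AC had 9.56 and 9.13 FPKM in TBZ-treated and 12.6 and 8.12 FPKM in DMSO-treated shMLKL cells. In shGFP cells HIST1H2AC had 9.25 and 8.62 FPKM after TBZ and 12.5 and 13.2 FPKM under DMSO. HIST1H2AC was the second most abundant H2A gene and fell with TBZ in shGFP cells, −0.48 ± 0.16 (SE, limma adjusted p = 0.0342, 6 of 14 other fits, up to 0.137 without shMLKL TBZ 1 or 2, shGFP TBZ 1 or 2 or shGFP DMSO 1 or 2, with equal medians or with no filter). HIST1H2AG, at 0.997 to 2.41 FPKM, and HIST2H2AB, at 0.728 to 4.63 FPKM, passed no test.

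**Figure D4:**
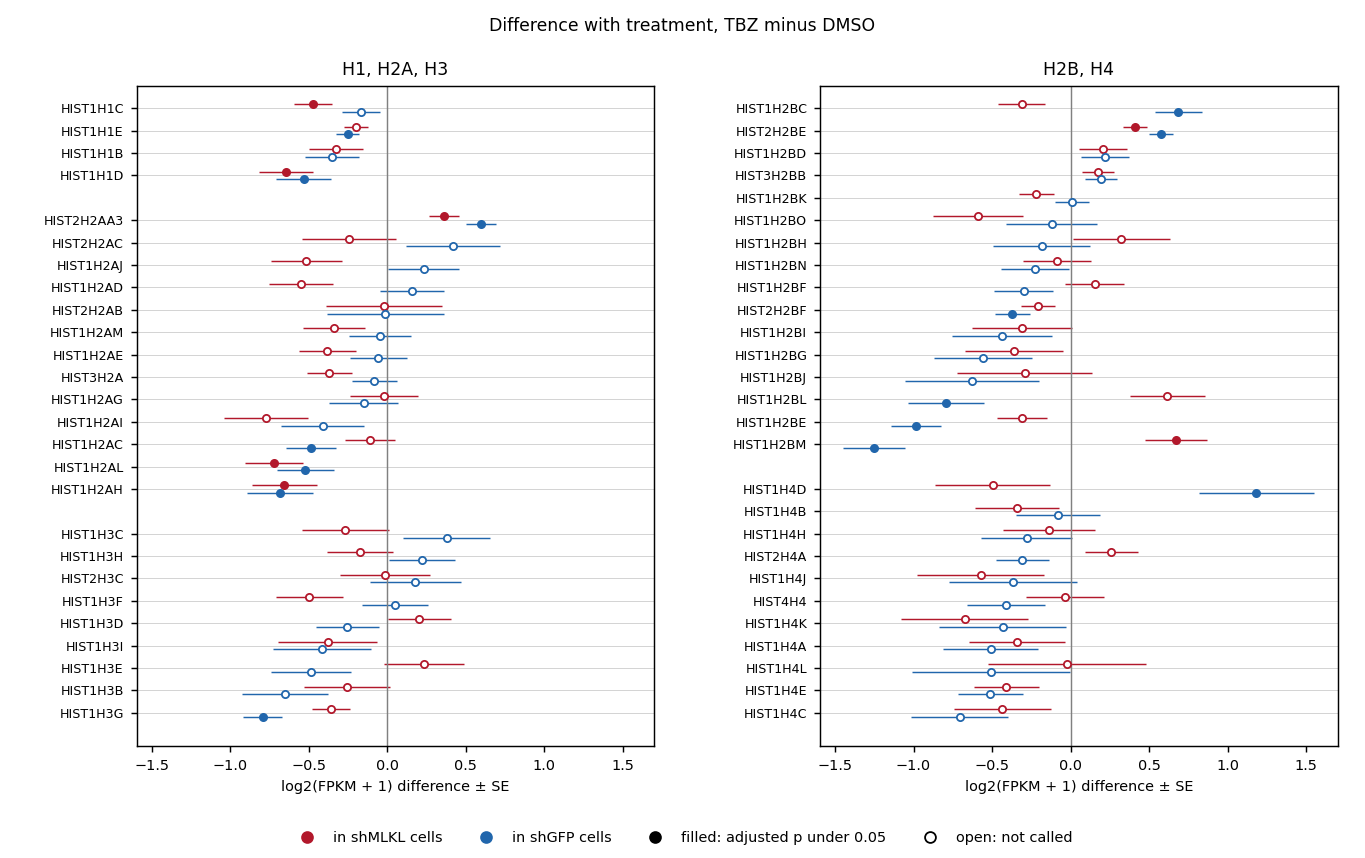
Difference between TBZ and DMSO for each tested histone gene by class, in shMLKL cells (red, upper point) and shGFP cells (blue, lower point), as log2(FPKM + 1) ± SE; filled points were called. Most points lie to the left of 0; HIST2H2AA3 and HIST2H2BE are called to the right of 0 in both lines, and HIST1H2BM is called on opposite sides.

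Among the H2B genes, HIST1H2BK, HIST2H2BE and HIST3H2BB were lower in shMLKL than in shGFP cells under both conditions. HIST1H2BK had 6.46 and 7.58 FPKM in TBZ-treated and 8.17 and 8.46 FPKM in DMSO-treated shMLKL cells. In shGFP cells HIST1H2BK had 23.3 and 22.9 FPKM after TBZ and 20.3 and 26.0 FPKM under DMSO. HIST1H2BK was the most abundant H2B gene of shGFP cells, and its lines did not overlap. It was lower in shMLKL cells, with a difference of −1.59 ± 0.11 (SE, limma adjusted p = 3.26e-05, 14 of 14 other fits) under TBZ and −1.36 ± 0.11 (SE, limma adjusted p = 4.31e-05, 14 of 14 other fits) under DMSO. Its TBZ difference was −0.22 ± 0.11 (SE, limma adjusted p = 0.162) in shMLKL and 0.01 ± 0.11 (SE, limma adjusted p = 0.954) in shGFP cells. HIST2H2BE had 3.67 and 4.04 FPKM in TBZ-treated and 2.83 and 2.50 FPKM in DMSO-treated shMLKL cells. In shGFP cells HIST2H2BE had 6.6 and 7.07 FPKM after TBZ and 4.40 and 4.13 FPKM under DMSO. HIST2H2BE is a replication-dependent gene whose long message ends far past its stem-loop, as shown above. It rose with TBZ by 0.41 ± 0.077 (SE, limma adjusted p = 0.00484, 14 of 14 other fits) in shMLKL cells and by 0.57 ± 0.077 (SE, limma adjusted p = 0.000573, 14 of 14 other fits) in shGFP cells. It was lower in shMLKL cells, with a difference of −0.69 ± 0.077 (SE, limma adjusted p = 0.000288, 14 of 14 other fits) under TBZ and −0.53 ± 0.077 (SE, limma adjusted p = 0.00074, 14 of 14 other fits) under DMSO. HIST3H2BB had 0.810 and 0.824 FPKM in TBZ-treated and 0.759 and 0.478 FPKM in DMSO-treated shMLKL cells. In shGFP cells HIST3H2BB had 1.26 and 1.19 FPKM after TBZ and 0.912 and 0.989 FPKM under DMSO. These are 6 to 16 fragments a library, and the small differences between lines, −0.29 ± 0.10 (SE, limma adjusted p = 0.0433, 4 of 14 other fits, up to 0.196 without shMLKL TBZ 1 or 2, shGFP TBZ 1 or 2 or shGFP DMSO 1 or 2, with equal medians, with pseudocount 0.1, with quantiles or with the replicate block) under TBZ and −0.27 ± 0.10 (SE, limma adjusted p = 0.0462, 4 of 14 other fits, up to 0.972 without shMLKL TBZ 1 or 2, shMLKL DMSO 2, shGFP TBZ 1 or 2 or shGFP DMSO 1 or 2, with equal medians, with quantiles or with the replicate block) under DMSO, rarely held in another fit.

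HIST1H2BC responded differently in the lines. HIST1H2BC had 8.92 and 9.04 FPKM in TBZ-treated and 11.9 and 10.9 FPKM in DMSO-treated shMLKL cells. In shGFP cells HIST1H2BC had 9.05 and 11.3 FPKM after TBZ and 4.90 and 7.08 FPKM under DMSO. Only the shGFP DMSO libraries stood apart from the rest. The gene rose with TBZ in shGFP cells by 0.68 ± 0.15 (SE, limma adjusted p = 0.00599, 14 of 14 other fits), while its difference in shMLKL cells was −0.31 ± 0.15 (SE, limma adjusted p = 0.143). The difference of these effects was −1.0 ± 0.21 (SE, limma adjusted p = 0.0162, 12 of 14 other fits, up to 0.0542 without shMLKL DMSO 1 or shGFP TBZ 2). Under DMSO it was higher in shMLKL cells by 0.84 ± 0.15 (SE, limma adjusted p = 0.00187, 14 of 14 other fits). HIST1H2BC and HIST1H2AC start 240 bases apart and are read in opposite directions, and in shGFP cells the H2B gene of the pair rose with TBZ while the H2A gene fell. The HIST2H2BE and HIST2H2AC pair starts 292 bases apart, and HIST2H2AC had a TBZ difference of 0.42 ± 0.30 (SE, limma adjusted p = 0.259) in shGFP cells. HIST1H2BK and HIST1H2AH start 223 bases apart, and the line difference of HIST1H2AH under DMSO was 0.03 ± 0.21 (SE, limma adjusted p = 0.904).

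The remaining called H2B genes were called under some conditions. HIST1H2BE had 5.07 and 4.43 FPKM in TBZ-treated and 5.98 and 6.25 FPKM in DMSO-treated shMLKL cells. In shGFP cells HIST1H2BE had 2.33 and 3.46 FPKM after TBZ and 7.66 and 5.71 FPKM under DMSO. HIST1H2BE fell with TBZ in shGFP cells, −0.98 ± 0.16 (SE, limma adjusted p = 0.00155, 14 of 14 other fits), and was higher in shMLKL cells under TBZ, 0.57 ± 0.16 (SE, limma adjusted p = 0.0194, 12 of 14 other fits, up to 0.112 without shMLKL TBZ 1 or shGFP TBZ 1). HIST2H2BF had 8.85 and 9.93 FPKM in TBZ-treated and 11.4 and 10.6 FPKM in DMSO-treated shMLKL cells. In shGFP cells HIST2H2BF had 6.53 and 5.19 FPKM after TBZ and 8.43 and 7.26 FPKM under DMSO. HIST2H2BF, which shared assembled transcripts with HIST2H3D in both shMLKL libraries of the first experiment, was higher in shMLKL cells by 0.60 ± 0.11 (SE, limma adjusted p = 0.00294, 14 of 14 other fits) under TBZ and 0.44 ± 0.11 (SE, limma adjusted p = 0.00948, 12 of 14 other fits, up to 0.0687 without shMLKL DMSO 1 or shGFP DMSO 2) under DMSO, and fell with TBZ in shGFP cells, −0.37 ± 0.11 (SE, limma adjusted p = 0.0227, 9 of 14 other fits, up to 0.14 without shGFP TBZ 2 or shGFP DMSO 1, with equal medians, with no filter or with quantiles). HIST1H2BF had 6.53 and 7.85 FPKM in TBZ-treated and 6.95 and 5.78 FPKM in DMSO-treated shMLKL cells. In shGFP cells HIST1H2BF had 5.47 and 3.67 FPKM after TBZ and 6.76 and 4.89 FPKM under DMSO. HIST1H2BF was higher in shMLKL cells under TBZ, 0.57 ± 0.19 (SE, limma adjusted p = 0.0361, 10 of 14 other fits, up to 0.202 without shMLKL TBZ 1 or 2 or shGFP TBZ 2 or with no filter). HIST1H2BL had 8.20 and 6.02 FPKM in TBZ-treated and 3.27 and 5.43 FPKM in DMSO-treated shMLKL cells. In shGFP cells HIST1H2BL had 2.91 and 1.66 FPKM after TBZ and 4.77 and 4.43 FPKM under DMSO. HIST1H2BL fell with TBZ in shGFP cells, −0.79 ± 0.24 (SE, limma adjusted p = 0.0244, 10 of 14 other fits, up to 0.142 without shGFP TBZ 2 or shGFP DMSO 1 or 2 or with no filter), and stood higher in shMLKL cells under TBZ, 1.32 ± 0.24 (SE, limma adjusted p = 0.00296, 14 of 14 other fits). The difference of its TBZ effects was 1.41 ± 0.34 (SE, limma adjusted p = 0.0252, 8 of 14 other fits, up to 0.0855 without shMLKL TBZ 1, shMLKL DMSO 1, shGFP TBZ 2 or shGFP DMSO 1 or 2 or with no filter).

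HIST1H2BM had the largest difference between TBZ effects among the tested histone genes, on very few fragments. HIST1H2BM had 1.38 and 1.41 FPKM in TBZ-treated and 0.518 and 0.490 FPKM in DMSO-treated shMLKL cells. In shGFP cells HIST1H2BM had 0 and 0.489 FPKM after TBZ and 2.34 and 1.52 FPKM under DMSO. At 0.254 FPKM a fragment, these are 5 and 5 fragments in TBZ-treated and 2 and 2 in DMSO-treated shMLKL cells, against 0 and 2 in TBZ-treated and 10 and 6 in DMSO-treated shGFP cells. With TBZ it rose in shMLKL cells, 0.67 ± 0.20 (SE, limma adjusted p = 0.0312, 8 of 14 other fits, up to 0.189 without shMLKL TBZ 1 or 2 or shMLKL DMSO 1 or 2, with no filter or with pseudocount 0.1), and fell in shGFP cells, −1.25 ± 0.20 (SE, limma adjusted p = 0.00131, 14 of 14 other fits), and the difference of the effects was 1.92 ± 0.28 (SE, limma adjusted p = 0.00354, 14 of 14 other fits). Between the lines the difference was 0.97 ± 0.20 (SE, limma adjusted p = 0.00485, 14 of 14 other fits) under TBZ and −0.95 ± 0.20 (SE, limma adjusted p = 0.00405, 13 of 14 other fits, 0.0676 with pseudocount 0.1) under DMSO. HIST1H2BD had 19.3 and 15.4 FPKM in TBZ-treated and 17.3 and 12.6 FPKM in DMSO-treated shMLKL cells, against 12.9 and 14.6 FPKM in TBZ-treated and 12.4 and 10.9 FPKM in DMSO-treated shGFP cells, and passed no test. HIST1H2BG, HIST1H2BH, HIST1H2BI, HIST1H2BJ, HIST1H2BN and HIST1H2BO, between 0.602 and 10.1 FPKM, passed none either.

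H3 genes were the lowest class, and 9 of 13 were tested. HIST1H3D had 2.65 and 3.93 FPKM in TBZ-treated and 2.62 and 2.73 FPKM in DMSO-treated shMLKL cells. In shGFP cells HIST1H3D had 0.865 and 1.18 FPKM after TBZ and 1.00 and 1.90 FPKM under DMSO. HIST1H3D was higher in shMLKL cells by 1.07 ± 0.20 (SE, limma adjusted p = 0.00327, 14 of 14 other fits) under TBZ and by 0.61 ± 0.20 (SE, limma adjusted p = 0.0291, 10 of 14 other fits, up to 0.178 without shMLKL DMSO 1 or 2 or shGFP DMSO 1 or with no filter) under DMSO. HIST1H3G had 1.53 and 1.81 FPKM in TBZ-treated and 2.86 and 2.03 FPKM in DMSO-treated shMLKL cells. In shGFP cells HIST1H3G had 0.670 and 0.675 FPKM after TBZ and 1.93 and 1.86 FPKM under DMSO. HIST1H3G fell with TBZ in shGFP cells, −0.79 ± 0.12 (SE, limma adjusted p = 0.00112, 14 of 14 other fits), where it stood at 3 and 3 fragments in TBZ-treated against 9 and 8 in DMSO-treated cells. It was higher in shMLKL cells under TBZ, 0.67 ± 0.12 (SE, limma adjusted p = 0.00282, 14 of 14 other fits). HIST1H3F had 1.53 and 1.82 FPKM in TBZ-treated and 3.35 and 2.26 FPKM in DMSO-treated shMLKL cells. In shGFP cells HIST1H3F had 0.672 and 1.58 FPKM after TBZ and 1.08 and 0.936 FPKM under DMSO. Its difference between lines under DMSO was 0.91 ± 0.21 (SE, limma adjusted p = 0.00688, 14 of 14 other fits), from 14 and 10 fragments in shMLKL against 5 and 4 in shGFP cells. HIST1H3B, HIST1H3C, HIST1H3E, HIST1H3H, HIST1H3I and HIST2H3C, between 0.655 and 4.91 FPKM, passed no test.

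H4 genes held the most abundant member. HIST1H4E had 45.9 and 56.6 FPKM in TBZ-treated and 70.2 and 65.7 FPKM in DMSO-treated shMLKL cells. In shGFP cells HIST1H4E had 22.2 and 36.4 FPKM after TBZ and 44.0 and 38.1 FPKM under DMSO. The shMLKL libraries of HIST1H4E lay above the shGFP libraries of the same treatment. It was higher in shMLKL cells by 0.82 ± 0.21 (SE, limma adjusted p = 0.0124, 13 of 14 other fits, 0.0796 without shMLKL TBZ 2) under TBZ and by 0.72 ± 0.21 (SE, limma adjusted p = 0.017, 11 of 14 other fits, up to 0.0999 without shMLKL DMSO 1 or 2 or shGFP DMSO 2) under DMSO. Its TBZ difference was −0.41 ± 0.21 (SE, limma adjusted p = 0.161) in shMLKL cells and −0.51 ± 0.21 (SE, limma adjusted p = 0.0667) in shGFP cells. HIST1H4C had 4.70 and 7.35 FPKM in TBZ-treated and 9.81 and 7.03 FPKM in DMSO-treated shMLKL cells. In shGFP cells HIST1H4C had 1.27 and 2.55 FPKM after TBZ and 4.88 and 2.65 FPKM under DMSO. HIST1H4C was higher in shMLKL cells by 1.28 ± 0.31 (SE, limma adjusted p = 0.0106, 12 of 14 other fits, up to 0.0717 without shMLKL TBZ 2 or shGFP TBZ 1) under TBZ and by 1.01 ± 0.31 (SE, limma adjusted p = 0.0226, 11 of 14 other fits, up to 0.15 without shMLKL DMSO 1 or shGFP DMSO 2 or with no filter) under DMSO. HIST1H4A had 1.20 and 2.85 FPKM in TBZ-treated and 2.25 and 3.19 FPKM in DMSO-treated shMLKL cells. In shGFP cells HIST1H4A had 0.703 and 0.354 FPKM after TBZ and 1.69 and 0.733 FPKM under DMSO. Its line difference under TBZ was 0.94 ± 0.30 (SE, limma adjusted p = 0.0337, 10 of 14 other fits, up to 0.189 without shMLKL TBZ 2 or shGFP TBZ 1 or 2 or with no filter), on 1 to 9 fragments a library. HIST1H4D had 1.24 and 1.26 FPKM in TBZ-treated and 3.09 and 1.46 FPKM in DMSO-treated shMLKL cells. In shGFP cells HIST1H4D had 2.90 and 1.82 FPKM after TBZ and 0 and 1.13 FPKM under DMSO. Here 1 shGFP DMSO library was listed at 0, and the gene was higher in shMLKL cells under DMSO, 1.12 ± 0.37 (SE, limma adjusted p = 0.0299, 10 of 14 other fits, up to 0.176 without shMLKL DMSO 1 or shGFP DMSO 1, with no filter or with pseudocount 0.1), and rose with TBZ in shGFP cells, 1.18 ± 0.37 (SE, limma adjusted p = 0.0273, 10 of 14 other fits, up to 0.152 without shGFP TBZ 1 or shGFP DMSO 1, with no filter or with pseudocount 0.1).

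HIST2H4A was the H4 gene that was lower in shMLKL cells. HIST2H4A had 4.03 and 5.34 FPKM in TBZ-treated and 4.42 and 3.10 FPKM in DMSO-treated shMLKL cells. In shGFP cells HIST2H4A had 5.22 and 4.48 FPKM after TBZ and 5.61 and 6.89 FPKM under DMSO. Its difference between lines under DMSO was −0.62 ± 0.17 (SE, limma adjusted p = 0.0136, 10 of 14 other fits, up to 0.0932 without shMLKL DMSO 2 or shGFP DMSO 2, with equal medians or with quantiles). HIST2H4A also stood on 2 identical lines, as did HIST2H3C, and each has a near-identical copy. HIST1H4J and HIST1H4K, at 1.56 to 8.60 FPKM, had a ratio of 1.01 in 6 of 8 libraries, and their fragments may be shared between them. HIST1H4B, HIST1H4H, HIST1H4L and HIST4H4, between 0 and 13 FPKM, passed no test, nor did that pair.

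By the annotated 3′ end, the 20 tested genes with transcripts running past the stem-loop had a median TBZ difference of −0.10 in shMLKL and −0.29 in shGFP cells, and the 7 ending near it −0.34 and −0.08 in the same order of lines. The 26 with no stem-loop in their annotated transcripts had −0.34 in shMLKL and −0.30 in shGFP cells. Between lines under DMSO the medians were 0.20 for genes annotated past the stem-loop, 0.48 for those ending near it and 0.64 for those with none. Under TBZ they were 0.37, 0.47 and 0.40, so the order under DMSO did not hold. HIST2H2BE and HIST2H2AA3, called as rising in both lines, fall in different groups of this annotation.

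The first experiment bears on the structure of some polyadenylated messages, because its files list transcripts. FPKM of the RefSeq and assembled transcripts at each histone locus were summed, and a transcript was called long if it was spliced or had at least 1000 exonic bases. HIST1H2BK, HIST2H2BE, HIST1H1C, HIST2H2AA3 and HIST2H4A list a single transcript in every library, so their form is that of the annotated record. The shares below include these loci and partly follow from the annotation. With each transcript counted once, long forms held 51.4% of the summed histone FPKM in shMLKL cells after 12 h of TBZ, 52.5% in shMLKL cells under DMSO, 60.5% in parental cells after 4 h of TBZ and 57.8% in parental cells under DMSO. Without HIST2H4A, whose values are uncertain, these shares were 70.7%, 63.3%, 60.5% and 62.5% in the same order, so their order across libraries rests on that locus. The summed FPKM itself was higher with TBZ, unlike in the second experiment. It was 659.6 after TBZ and 363.3 under DMSO in shMLKL cells, and 462.3 and 341.0 in parental cells. Without HIST2H4A the sums were 479.5 and 301.7 in shMLKL cells, and 462.3 and 315.4 in parental cells. Under DMSO the shMLKL sum thus lay above the parental one only with HIST2H4A. Some genes called higher in shMLKL than in shGFP cells under DMSO had lower shMLKL than parental values here. Their ratios were 0.766 for HIST3H2A, 0.877 for HIST2H2AC, 0.731 for HIST2H2BF and 0.557 for HIST1H2BC. HIST1H1C had 1.01 and HIST1H2AE 1.11, and the others so called had no ratio. The lines and times differ between the treated libraries and there is 1 library of each kind, so no difference here has a replicate check. The tables of the experiments were made separately, and levels are not compared across them.

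**Figure D5:**
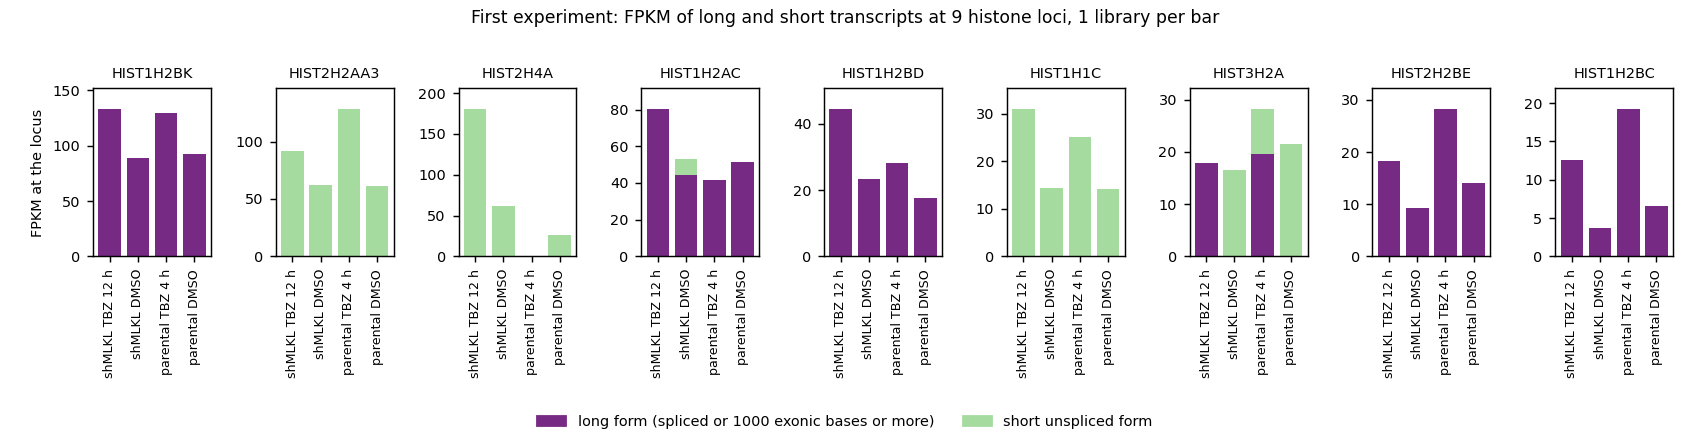
FPKM at the 9 histone loci with the highest mean in the first experiment, 1 library per bar, divided into long and short transcripts, with shMLKL cells left of parental cells and TBZ left of DMSO. HIST1H2BK, HIST1H2BD, HIST2H2BE and HIST1H2BC carry their FPKM in long forms, HIST2H2AA3, HIST2H4A and HIST1H1C in short forms. For all of these but HIST1H2BD and HIST1H2BC a single transcript is listed, so the form is that of the annotated record.

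HIST1H2BK was the most abundant locus, with 133 FPKM in shMLKL cells after 12 h of TBZ and 88.9 under DMSO, and 130 in parental cells after 4 h of TBZ and 92.7 under DMSO. All of it was listed under a spliced RefSeq transcript of 2 exons and 839 exonic bases. No other transcript was listed there, so the form follows from the annotation. The shMLKL and parental DMSO libraries of HIST1H2BK differed by a ratio of 0.96, unlike the lower level in shMLKL than in shGFP cells of the second experiment. HIST1H2BD was likewise spliced, at 44.4 and 23.5 FPKM in shMLKL cells after 12 h of TBZ and under DMSO, and 28.2 and 17.5 FPKM in parental cells after 4 h of TBZ and under DMSO. HIST2H2BE was listed only as an unspliced RefSeq transcript of 2223 bases, at 18.3 and 9.30 FPKM in shMLKL cells after 12 h of TBZ and under DMSO, and 28.2 and 14.0 FPKM in parental cells after 4 h of TBZ and under DMSO. The authors' interval for it in parental cells was 26.5 to 29.8 after 4 h of TBZ and 13.1 to 14.9 under DMSO.

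HIST1H2BC stood at 12.6 and 3.68 FPKM in shMLKL cells after 12 h of TBZ and under DMSO, and at 19.2 and 6.61 FPKM in parental cells after 4 h of TBZ and under DMSO, all in assembled spliced transcripts, with its short RefSeq transcript listed at 0. The ratio of TBZ to DMSO was 3.42 in shMLKL and 2.90 in parental cells. For HIST2H2BE that ratio was 1.96 in shMLKL and 2.02 in parental cells, and for HIST2H2AA3 1.46 and 2.10 in the same order. After 12 h of TBZ the HIST2H2AA3 value is that listed at its position under the record of its identical copy. Across RefSeq transcripts at 1 FPKM or more in both libraries, the median ratio was 0.913 (quartiles 0.70 and 1.22) in shMLKL cells and 0.862 (quartiles 0.64 and 1.16) in parental cells. These 3 genes were called as rising with TBZ in at least 1 line of the second experiment, as were HIST1H4D and HIST1H2BM, which had at most 10 fragments in any library. HIST1H2BC was called in shGFP cells only, and its difference in shMLKL cells there was −0.31 after 5 h, unlike its ratio of 3.42 here. Under DMSO its ratio of shMLKL to parental cells was 0.557, whereas the second experiment had it higher in shMLKL than in shGFP cells. A ratio above 1 was not particular to these 3 genes. A ratio was taken only for histone loci at 1 FPKM or more in both libraries, which leaves out loci that fell below it. Among histone loci with a ratio, all but HIST1H3E (0.953) and HIST1H2AK (0.753) exceeded 1 in shMLKL cells. In parental cells all but HIST1H2AC (0.806), HIST1H3E (0.421), HIST1H4J (0.988) and HIST1H2BN (0.52) did. Loci listed at 0 after TBZ, such as HIST1H2BJ and HIST3H2BB in both lines, had no ratio. In parental cells HIST2H4A went from 25.6 FPKM under DMSO to 0 after TBZ, HIST2H2BF from 2.42 to 0 and HIST1H2AG from 1.65 to 0.861. HIST1H3H, also without a ratio, went from 0.903 to 2.02. Loci at 1 FPKM or more numbered 17 after TBZ and 24 under DMSO in parental cells, and 27 and 23 in shMLKL cells. Most parental loci with a ratio thus rose while fewer loci reached 1 FPKM. HIST1H1C had a ratio of 2.14 in shMLKL and 1.77 in parental cells, whereas it fell in shMLKL cells of the second experiment. HIST1H2AC, in spliced assembled transcripts except for 9.10 FPKM of its short RefSeq form in shMLKL cells under DMSO, had 80.1 and 53.2 FPKM in shMLKL cells after 12 h of TBZ and under DMSO, and 41.6 and 51.6 FPKM in parental cells after 4 h of TBZ and under DMSO.

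HIST2H4A stood at 180 and 61.6 FPKM in shMLKL cells after 12 h of TBZ and under DMSO, and at 0 and 25.6 FPKM in parental cells after 4 h of TBZ and under DMSO. It has a near-identical copy, so these values are uncertain. HIST3H2A had 17.9 and 16.4 FPKM in shMLKL cells after 12 h of TBZ and under DMSO, and 28.1 and 21.5 FPKM in parental cells after 4 h of TBZ and under DMSO, in long forms in the treated and short forms in the untreated libraries for the most part. HIST1H4E, the highest member in the second experiment, stood at 2.06 and 0.468 FPKM in shMLKL cells after 12 h of TBZ and under DMSO, and at 0.479 and 0.908 FPKM in parental cells after 4 h of TBZ and under DMSO. It ranked 27 of 67 histone genes there by its mean. How each table assigned fragments at that locus was not tested.

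Genes that act around the histones were read from the same fit. Of 43 tested genes of the G1/S transition and DNA replication, 1 was higher and 39 were lower in shMLKL than in shGFP cells under DMSO, where 18.3% of all genes tested were higher and 44.8% lower. Their median difference was −0.54, against −0.16 for all genes tested and 0.38 for the histone genes. With TBZ 7 of the 43 rose and 3 fell in shMLKL cells, and 1 rose and 26 fell in shGFP cells, where 20.0% of all genes rose and 17.6% fell in shMLKL cells, and 19.1% rose and 37.3% fell in shGFP cells. The counts of the next lists are to be read against the same shares. UNG, which removes uracil from DNA, had 5.36 and 4.60 FPKM in TBZ-treated and 5.16 and 5.04 in DMSO-treated shMLKL cells, against 10.8 and 10.6 FPKM in TBZ-treated and 17.2 and 15.9 in DMSO-treated shGFP cells. CCNE2 (cyclin E2) and POLE2 (a DNA polymerase epsilon subunit) were also lower in shMLKL cells under DMSO, with differences of −1.05 and −1.16. RFC4, a clamp loader subunit, was listed at 0 in all 4 shMLKL libraries, against 11.3 and 11.8 FPKM in TBZ-treated and 19.8 and 19.0 FPKM in DMSO-treated shGFP cells. As with KRT8 and KRT18, such a 0 can be a failed estimate, and RFC4 is 1 of the 39 genes counted as lower. Of 20 G2/M genes tested, 3 rose and 7 fell with TBZ in shMLKL cells, and none rose and 20 fell in shGFP cells. PLK1, a mitotic kinase, had 12.7 and 11.9 FPKM in TBZ-treated and 20.6 and 19.8 in DMSO-treated shMLKL cells, against 13.5 and 13.8 FPKM in TBZ-treated and 28.4 and 28.9 in DMSO-treated shGFP cells. KIF20A, BUB1B and AURKA, which also act in mitosis, had TBZ differences of −0.01, −0.59 and −0.38 in shMLKL cells and of −0.99, −0.96 and −0.90 in shGFP cells.

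Of 25 tested genes for the 3′ processing and decay of histone RNA, 2 (8.0%) were higher and 13 (52%) lower in shMLKL cells under DMSO, near the 44.8% lower of all genes, with a median of −0.21. With TBZ 4 rose and 3 (12%) fell in shMLKL cells, and 3 (12%) rose and 10 (40%) fell in shGFP cells, near the 37.3% of all genes. PCF11, a factor of cleavage and termination at poly(A) sites, had 23 and 24.3 FPKM in TBZ-treated and 16.8 and 17.6 in DMSO-treated shMLKL cells, against 26.9 and 27.5 FPKM in TBZ-treated and 15.8 and 15.2 in DMSO-treated shGFP cells. Its TBZ difference was 0.44 ± 0.046 (SE, limma adjusted p = 0.000293) in shMLKL and 0.78 ± 0.046 (SE, limma adjusted p = 7.81e-06) in shGFP cells. SRRT (ARS2), CSTF2 and CPSF3 were lower in shMLKL cells under DMSO, with differences of −0.55, −0.58 and −0.61.

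Replacement histones are made throughout the cell cycle from ordinary polyadenylated messages. Of 11 tested, 6 were higher and 3 lower in shMLKL cells under DMSO, and 5 were higher and none lower under TBZ, where 20.7% of all genes were higher and 31.0% lower. H3F3B, which encodes H3.3, had 328 and 319 FPKM in TBZ-treated and 280 and 286 in DMSO-treated shMLKL cells, against 198 and 201 FPKM in TBZ-treated and 149 and 157 in DMSO-treated shGFP cells. H2AFZ, which encodes H2A.Z, had 172 and 190 FPKM in TBZ-treated and 166 and 167 in DMSO-treated shMLKL cells, against 95.1 and 104 FPKM in TBZ-treated and 104 and 99 in DMSO-treated shGFP cells. H3F3C, of the H3.3 family, and H1FX, a linker histone, were higher in shMLKL cells under DMSO by 0.77 and 0.72. Whether H3F3C and H3F3B share fragments was not tested, so they may not be separate counts. With TBZ 2 of the 11 rose and none fell in shMLKL cells, and 3 rose and 4 fell in shGFP cells. Of 24 histone chaperone genes, 3 were higher and 13 lower in shMLKL cells under DMSO, and with TBZ 3 rose and 4 fell in shMLKL and none rose and 14 fell in shGFP cells. HJURP, which loads the centromeric histone CENP-A, had a TBZ difference of −0.37 in shMLKL and −1.36 in shGFP cells. ASF1A and DNAJC9, which carry H3 and H4, were higher in shMLKL cells under DMSO by 0.58 and 0.60, and ANP32E, a chaperone of H2A.Z, was lower, with a difference of −0.54.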

How the data were processed

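Per the labels' protocols, polyadenylated RNA was made into libraries with a stranded TruSeq mRNA kit and sequenced in pairs on a HiSeq2000. The submitters' processing notes name the genome hg19, TopHat2 2.0.13, STAR 2.4.0f1, Cufflinks 2.2.1 and GATK, with no role or order. For the second experiment the authors deposited 1 gene table whose header names no unit, taken here as FPKM from its values. For each library of the first experiment they deposited a transcript list with FPKM and its interval. No deposited file holds read counts, so depth is known only in relative terms, from 82.9 to 100.0% of the deepest library.

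Each symbol took its line with the highest mean. The 10364 genes whose mean reached 1 FPKM in some group entered a limma fit (version 3.58.1, R 4.3.3) of log2(FPKM + 1) over all 8 libraries, with 4 group means and a mean-dependent prior variance. Benjamini-Hochberg adjustment ran over all genes tested, at 0.05. Every called histone gene is named with its values; of each other list, up to 4 called genes with the largest difference in any TBZ or line comparison are named. Fragments were recovered for 25 histone genes from steps in their low FPKM, within 0.08 of a whole fragment. Libraries with the same number in different groups did not deviate together (correlations −0.066 to 0.028), so no pairing was used. The histone genes, the lists and the tests were chosen with earlier results of these data known. The fit was tested on simulated data for the comparison of TBZ with DMSO in shGFP cells.

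Stem-loops were searched in GENCODE release 29 transcripts and motifs in RefSeq promoters. Alternatives were a pseudocount of 0.1, no filter, library medians set equal, quantile normalization, a replicate block, the sum of distinct lines, and each library left out. The sum of distinct lines, which left the histone class sums unchanged, ended 0 of 62 calls.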

Additional observations from a re-analysis of the deposited data

Results flagged for a closer look

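The response to TBZ differed between the lines for 3 histone genes by the limma test of the difference between the TBZ effects, all of H2B. For HIST1H2BC the difference, shMLKL minus shGFP, was −1.0 on the log2(FPKM + 1) scale. For HIST1H2BL it was 1.41. For HIST1H2BM it was 1.92, on at most 10 fragments in any library. In the single libraries of the first experiment HIST1H2BC was higher with TBZ in both lines. Its ratio of TBZ to DMSO was 3.42 in shMLKL cells after 12 h and 2.90 in parental cells after 4 h.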

How the results depend on the processing

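Of 868 values for called histone genes under another setting, 696 kept their direction and their side of the threshold, 171 kept the direction only, and 1 changed sign: the line difference of HIST3H2BB under DMSO, 0.005 after quantile normalization. With no filter on low values, which tests 61 histone genes among 15505, 5 fell with TBZ in shGFP cells, 1 rose and 2 fell in shMLKL cells, the TBZ effects differed upward for 1 and downward for 2, and 11 were higher in shMLKL cells under DMSO. Of all 15505 genes, 24.7% fell in shGFP cells, and 12.9% rose and 10.9% fell in shMLKL cells. Their TBZ effects differed upward for 7.92% and downward for 4.8%, and 12.3% were higher in shMLKL cells under DMSO. With library medians set equal, 5 fell with TBZ in shGFP and 7 in shMLKL cells, and 3 were lower in shMLKL cells under DMSO. Of all genes in that fit, 28.2% fell in shGFP and 20.7% in shMLKL cells, and 26.6% were lower in shMLKL cells under DMSO. After quantile normalization 5 fell with TBZ in shGFP cells, the TBZ effects differed downward for 2, and 29 were higher and 3 lower in shMLKL cells under DMSO. Of all genes in that fit, 32.7% fell in shGFP cells and the TBZ effects differed downward for 9.96%. In shMLKL cells under DMSO 27% of all genes were higher and 29.8% lower. The cause of these shifts between settings was not tested. A fit without 1 library leaves 1 library in a group. The share of all genes called also moved between these fits. The counts below thus say little about histone genes alone. In these fits the median TBZ difference of histone genes was −0.342 to −0.131 in shMLKL cells (all genes −0.01 to 0.001). In shGFP cells it was −0.317 to −0.186 (−0.126 to −0.11). Between lines it was 0.318 to 0.49 under DMSO (all genes −0.166 to −0.152) and 0.29 to 0.476 under TBZ (−0.066 to −0.052). Leaving out 1 library at a time gave 1 to 3 rising and 0 to 8 falling with TBZ in shMLKL cells, and 4 to 5 rising and 5 to 12 falling in shGFP cells. It gave 1 to 5 upward and 0 to 3 downward differences of the TBZ effects, 8 to 20 higher and 3 to 7 lower in shMLKL cells under DMSO, and 8 to 17 higher and 2 to 3 lower under TBZ.

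With the replicate block, 3 rose and 4 fell with TBZ in shMLKL cells, 4 rose and 9 fell in shGFP cells, 2 and 1 differed between lines, 19 were higher and 4 lower in shMLKL cells under DMSO, and 13 higher and 2 lower under TBZ. Of all genes, 19% rose and 16.8% fell in shMLKL cells, and 18.7% rose and 36.4% fell in shGFP cells. The TBZ effects differed upward for 12.6% and downward for 7.3% of them. Between lines 18% were higher and 44.2% lower under DMSO, and 20.2% higher and 30.2% lower under TBZ. The replicate block ended 5 of 62 calls of single genes. Same-numbered libraries shared only a number. Many histone genes rest on few fragments, which limits the precision of their differences.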
